A study of Mus musculus with 6 samples.

Results

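Marginal zone B cells are a resident B cell population of the spleen. The genes described here are 5 that mark them or direct their formation: Cr2, Cd1d1, S1pr3, Dtx1 and Notch2. All probe sets that the array's annotation assigns to any of these genes were taken, whatever their level, which gave 7 of the 12488 probe sets on the array, for 5 of the 8252 genes that its annotation names by a single symbol. Of these, 6 carry 1 symbol, with 2 of them for Notch2, and 1 is annotated to both Cd1d1 and its neighbour paralogue Cd1d2. All 7 passed the filter on dim probe sets.

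Marginal zone B cells lie at the border of the white pulp and respond early to antigens carried by the blood. Their formation depends on signalling through the receptor Notch2, which after cleavage acts in the nucleus with the DNA-binding protein RBPJ. They carry much complement receptor CD21 and the lipid-presenting molecule CD1d on their surface, and they keep their place by sensing sphingosine-1-phosphate (S1P) in the blood.

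RNA of whole splenic B cells from adult mice was measured on 6 Affymetrix MG_U74Av2 arrays, 2 for every group. Wild type CBA mice were set beside Xid mice (strain CBA/N, with the R28C mutation) and mice labelled Btk KO, a knockout line moved from an SW129 to a CBA background by 9 generations of crossing. Btk is the kinase that relays B cell receptor signals, and the mutation or knockout cannot be told apart from other differences between the strains. The series' design text has 3 arrays run first, 1 per group, and 3 later from fresh RNA of other mice. Whether any RNA was pooled over animals is not given, so p-values measure only the spread between these samples.

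The second set of 3 arrays shared a chip lot and a hybridisation day. The first set shared a lot, but its Btk KO array was hybridised on a day of its own. That array also stood apart in its control probe sets. Its 3' to 5' ratio was 10.4 for Gapdh and 3.61 for beta-actin, whereas elsewhere these ratios did not exceed 1.61 and 1.66. Values without it are given below for most members and for some other genes, not for every gene or fit. The median intensity per array was 32.5 to 37.6 scaled units, and the number of arrays limits the precision. As a check of the labels, the brighter Btk probe set averaged 225 ± 72.5 in Btk KO (SD, n = 2 here and for all group means), 812 ± 87.9 in CBA and 742 ± 139 in Xid. Whether its probes lie in the deleted part is not known here. The limma adjusted p of its Btk KO difference was 0.052 without and 0.0053 with the set of arrays as a block (0.05, just under the threshold, and 0.0099 without the first Btk KO array).

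Promoter sequences matched 4 of the 5 genes, in RefSeq's GRCm38.p6 table, and Cd1d1 was not matched. The 250 bases before the start of each gene were searched on both strands for TGGGAA, the core of the RBPJ site, because Notch2 acts through RBPJ. Cr2 held 1 match, at position -220 on the gene's own strand, and S1pr3, Dtx1 and Notch2 held 0. The longer form GTGGGAA, which overlaps the core, was also matched in Cr2. Among all 32851 windows of this length in the table, 21.6% held TGGGAA and 5.4% held GTGGGAA. The windows of Cr2, the gene with the match, and of S1pr3, whose mutant arrays all lay below wild type, are shown with TGGGAA in capitals.
Cr2, chr1:195176720-195176969, minus strand: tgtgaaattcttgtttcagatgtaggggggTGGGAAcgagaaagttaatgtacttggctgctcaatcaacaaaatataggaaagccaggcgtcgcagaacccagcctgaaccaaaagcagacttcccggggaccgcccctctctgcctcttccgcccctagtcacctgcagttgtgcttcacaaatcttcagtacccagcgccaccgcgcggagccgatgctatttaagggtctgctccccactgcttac
S1pr3, chr13:51408368-51408617, plus strand: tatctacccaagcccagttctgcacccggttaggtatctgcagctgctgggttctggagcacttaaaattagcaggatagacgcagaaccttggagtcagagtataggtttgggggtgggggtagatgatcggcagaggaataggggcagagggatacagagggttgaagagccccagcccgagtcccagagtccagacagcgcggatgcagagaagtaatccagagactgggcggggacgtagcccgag
A match describes these letters only. Binding was not measured.

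S1pr3 was the single member whose signal was lower on all 4 mutant arrays than on both wild type arrays. It encodes an S1P receptor that is abundant on marginal zone B cells. Its intensity was 151.1 and 190.2 on the CBA arrays of the first and second set, 83.5 and 98.3 on the Xid arrays, and 86.9 and 134.9 on the Btk KO arrays. The mutant groups overlapped each other and neither overlapped CBA. The group means were 171 ± 27.6 in CBA, against 90.9 ± 10.5 in Xid and 111 ± 33.9 in Btk KO, so Xid stood at 53.3% and Btk KO at 65.0% of wild type.

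On the log2 scale S1pr3 differed between Xid and CBA by -0.86 ± 0.27 (SE; 95% interval -1.49 to -0.23), with limma's unadjusted p = 0.014 and adjusted p = 0.72. The difference was -0.81 in the first set of arrays and -0.91 in the second. Between Btk KO and CBA it was -0.62 ± 0.27 (-1.25 to 0.01), with limma adjusted p = 0.57. In the sets it was -0.76 and -0.48, and without the Btk KO array of the first set it was -0.32 ± 0.27. Neither difference passed the threshold over all probe sets. For the mean of both mutant groups against CBA the difference was -0.74 ± 0.23, at limma adjusted p = 0.45, and its unadjusted p of 0.015 ranked 247 of 7453. Arrays separated in this way, with all 4 mutant values below both wild type values, on 7.31% of all probe sets tested. Btk KO and Xid did not differ beyond their spread, at 0.24 ± 0.27 (-0.39 to 0.88), or 0.54 ± 0.27 without the Btk KO array of the first set (limma adjusted p = 1).

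Most markers of all B cells also lay lower in Btk KO. The 5 measured pan B genes (Cd79a, Cd79b, Ms4a1, Pax5 and Cd22) had a mean log2 difference of -0.56 in Btk KO and -0.16 in Xid against CBA. Their summed intensity was 17560 and 17530 on the CBA arrays, 19050 and 13700 on Xid and 12590 and 12070 on Btk KO. Of the 5, 0 passed with limma, and 3 (Cd22, Pax5 and Cd79a) had an unadjusted p under 0.05 in Btk KO. Ms4a1 differed by -0.27 in Btk KO on the probe set used and by -0.03 on its other. Set against the mean of these genes on the same array, S1pr3 differed from CBA by -0.70 in Xid and by -0.06 in Btk KO. The latter averaged -0.42 on the Btk KO array of the first set and 0.30 on that of the second, so without the first the sign turned. This ratio was computed after the data were seen and has no test. In RNA of many cells, fewer cells of a type and less RNA per cell cannot be told apart.

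**Figure D1:**
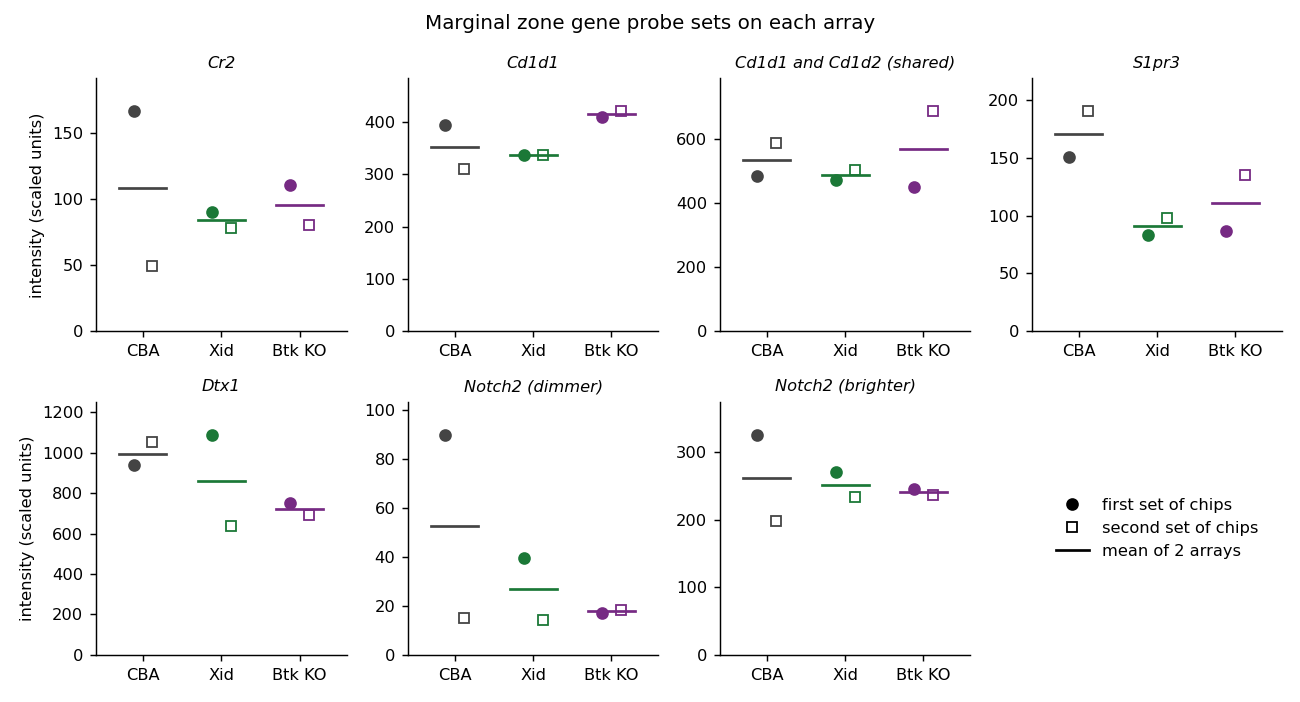
Intensity (scaled units, linear axis from 0) of the 7 probe sets on each of the 6 arrays, by group; filled circles are the first set of arrays, open squares the second, and bars the mean of 2 arrays. S1pr3 is the one panel in which both CBA arrays, at 151.1 and 190.2, lie above all 4 mutant arrays.

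Cr2 encodes both CD21, the receptor for fragments of complement C3, and the longer receptor CD35. Its probe set is of the class marked _r_at, for which the usual rules of probe choice were relaxed. The intensity was 166.2 and 49.5 on the CBA arrays, 89.8 and 77.7 on Xid, and 110.3 and 80.2 on Btk KO. The CBA arrays were the highest and the lowest of all 6, so every mutant value lay between them. The means were 108 ± 82.5 in CBA, against 83.8 ± 8.56 in Xid and 95.2 ± 21.3 in Btk KO. Differences from CBA were -0.13 ± 0.49 in Xid and 0.03 ± 0.49 in Btk KO, with 95% intervals of -1.27 to 1.01 and -1.11 to 1.18, so differences of either sign within these bounds could not be resolved. The sign depended on the set, at -0.85 and 0.59 for Xid and -0.57 and 0.64 for Btk KO. Without the Btk KO array of the first set the Btk KO difference was -0.18 ± 0.59, or 0.28 ± 0.43 with the set of arrays as a block.

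Cd1d1 encodes CD1d, which presents lipids to natural killer T cells. Its own probe set measured 395 and 310 on the CBA arrays, 337.1 and 337.8 on Xid, and 409.6 and 420.6 on Btk KO. Both Btk KO arrays lay above the other 4, and both Xid arrays lay between the wild type values. The difference between Btk KO and Xid was 0.29 ± 0.20 (95% interval -0.17 to 0.75; limma adjusted p = 0.998), and it was 0.31 ± 0.24 without the Btk KO array of the first set. Against CBA the differences were -0.05 ± 0.20 in Xid and 0.24 ± 0.20 in Btk KO (limma adjusted p = 0.999 and 0.81), with the latter 0.05 in the first set and 0.43 in the second.

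The probe set shared by Cd1d1 and Cd1d2 cannot tell the paralogues apart. It measured 484.1 and 588.5 in CBA, against 473.3 and 503.1 in Xid and 451.2 and 686.2 in Btk KO, and all 3 groups overlapped. The Btk KO arrays were its lowest and its highest value. Its differences from CBA were -0.13 ± 0.25 in Xid and 0.06 ± 0.25 in Btk KO, and the latter was 0.36 ± 0.23 without the Btk KO array of the first set. The probe set of Cd1d2 alone differed from CBA by 0.03 ± 0.33 in Xid and 0.19 ± 0.33 in Btk KO. Without the first Btk KO array the latter was 0.57 ± 0.33.

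Notch2 encodes the receptor itself, and its probe sets disagreed in how far they spread. The brighter measured 325.3 and 198.4 on the CBA arrays, 270.6 and 233.9 on Xid, and 245.4 and 236.8 on Btk KO. All mutant values lay between the wild type ones. Its differences from CBA were -0.01 ± 0.26 in Xid and -0.07 ± 0.26 in Btk KO, with 95% intervals of -0.62 to 0.59 and -0.68 to 0.53. The dimmer probe set measured 89.7 and 15.2 in CBA, against 39.4 and 14.2 in Xid and 17.1 and 18.5 in Btk KO. Of these 6 values, 4 lay below 19.8, the mean intensity at the filter on dim probe sets. Its differences of -0.57 ± 0.71 and -0.92 ± 0.71 came from the first set of arrays, at -1.08 and -2.05, whereas in the second they were -0.07 and 0.21.

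Dtx1 encodes Deltex, a cytoplasmic regulator of Notch signalling whose transcription Notch raises in B cells. Its intensity was 936.8 and 1052.1 on the CBA arrays, 1086.7 and 637.1 on Xid, and 752 and 691.2 on Btk KO. Both Btk KO arrays lay below both wild type arrays, and the Xid arrays were the highest and the lowest of all 6. The means were 994 ± 81.5, 862 ± 318 and 722 ± 43.0, which put Btk KO at 72.6% of CBA. Btk KO differed from CBA by -0.46 ± 0.27 (95% interval -1.09 to 0.18; limma adjusted p = 0.72), at -0.31 and -0.60 in the sets and -0.52 ± 0.33 without the Btk KO array of the first set. Xid differed by -0.25 ± 0.27, with opposite signs in the sets (0.21 and -0.72), and by 0.13 ± 0.26 without the second Xid array. Relative to the pan B genes, which also lay lower, Dtx1 in Btk KO differed from CBA by 0.10.

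Across the 7 probe sets, limma called 0 in Xid, where it called 0.0671% of all 7453 probe sets, and 0 in Btk KO, where it called 0.174%. At an unadjusted p under 0.05 the counts were 1 of 7 in Xid (S1pr3), against 4.43% of all probe sets, and 0 of 7 in Btk KO, against 8.83%. Between Btk KO and Xid the count was 0 by either measure, against 0.0403% and 3.61%, and for the mean of both mutants against CBA limma called 0, against 0.148%, with 1 at an unadjusted p under 0.05 (S1pr3), against 7.37%. With the set of arrays as a block limma called 0 of the 7 in each comparison as well, against 0.483% of all probe sets in Xid, 2.23% in Btk KO, 0.188% between them and 1.93% for their mean. The comparisons with CBA share its arrays. At an unadjusted p under 0.05 the block fit counted S1pr3 alone in Xid, in Btk KO and for their mean, against 8.1%, 15.1% and 12.7% of all probe sets, and 0 between Btk KO and Xid, against 7.31%. For S1pr3 in Btk KO the unadjusted p was 0.054 without the block and 0.014 with it, where the 95% interval was -1.07 to -0.17. That difference with the block was -0.62 ± 0.19, and -0.45 ± 0.24 once the first Btk KO array was left out. The median difference of the 7 was -0.13 in Xid and -0.07 in Btk KO, beside 0.01 over all probe sets in both.

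The arrays of Xid and CBA did not overlap on 1 member, S1pr3, which was lower. Over all probe sets 14.4% were lower and 17.0% higher without overlap. In Btk KO 2 members were lower without overlap (S1pr3 and Dtx1), against 16.0% of all, and 1 was higher (Cd1d1), against 20%. Between Btk KO and Xid 1 was higher (Cd1d1), against 14.2%, and 0 lower, against 12.3%. All mutant arrays lay above both CBA arrays on 0 members, against 9.82%. Of the 7 probe sets, 3 had the same sign in both sets of arrays in Xid and 3 in Btk KO.

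**Figure D2:**
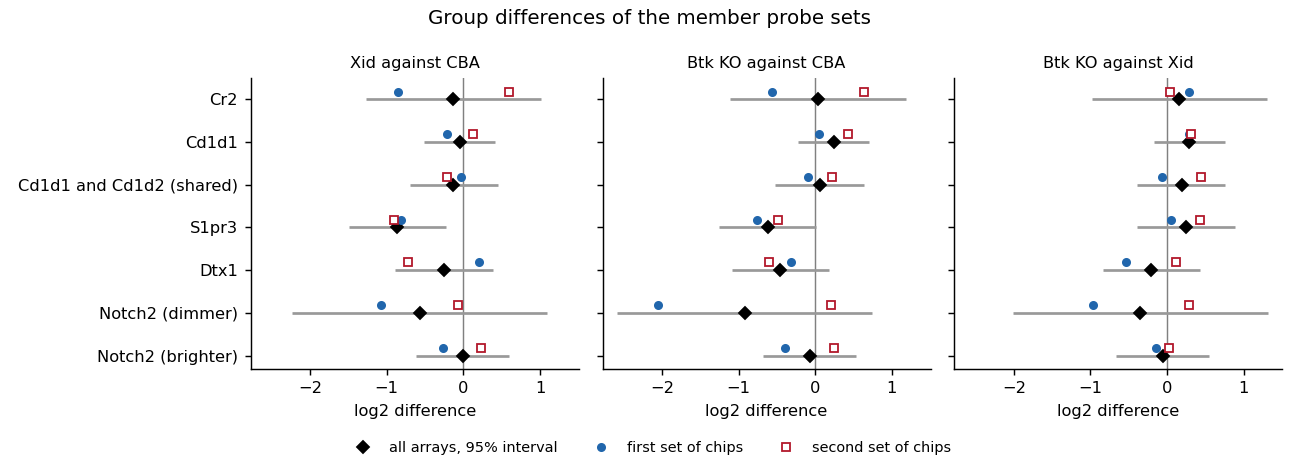
Log2 differences of the 7 probe sets in the 3 pairwise comparisons; diamonds are the values over all 6 arrays with 95% intervals, and circles and squares the differences within the first and second set of arrays. The interval of S1pr3 in Xid against CBA, -1.49 to -0.23, is the only one of the 21 that does not reach 0.

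The members did not follow 1 common pattern over the arrays. Pearson's r of log2 values over the 6 arrays, which share groups and sets, ran from -0.54 to 0.94 among the 21 pairs of probe sets. The highest was between Cr2 and the brighter Notch2 probe set, which were both highest on the first CBA array and lowest on the second. S1pr3 had r = 0.28 with Dtx1, -0.23 with that Notch2 probe set and -0.26 with Cr2. Among 6670 other probe sets with 1 symbol, the genes most like S1pr3 were Aldh2 (0.993), an aldehyde dehydrogenase, Rasal1 (0.985), a Ras GTPase activator, and Mxd3 (0.985), a partner of Max. Aldh2 measured 484 ± 20.6, 370 ± 16.0 and 404 ± 43.5 in CBA, Xid and Btk KO. Cr2 was most like Cyrib (0.983), Zfp871 (0.982) and Cct8 (0.979), Cd1d1 most like Tm2d2 (0.985), Zfp281 (0.970) and Glud1 (0.962), Dtx1 most like Clcn5 (0.988), Rpl7a (0.977) and Polr3d (0.975), and Notch2 most like Arhgef2 (0.994), Nsmce4a (0.981) and Pspc1 (0.976). These genes are the top of 6670 compared (6669 for Notch2), and r over 6 arrays is a description only.

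Among other genes known from marginal zone B cells, 6 of 11 were measured above the filter and 0 passed without the block (limma), with 2 at an unadjusted p under 0.05 in Xid and 2 in Btk KO (Cd9 and Ackr3). Their median difference was 0.03 in Xid and -0.03 in Btk KO. Cd9, a tetraspanin of marginal zone and B-1 cells, measured 176.5 and 125.3 in CBA, against 43.0 and 65.7 in Xid and 60.1 and 105.3 in Btk KO, with all 4 mutant arrays below both wild type arrays, as for S1pr3. Its differences were -1.38 ± 0.34 and -0.85 ± 0.34 (limma adjusted p = 0.48 and 0.53). Ackr3, an atypical receptor for CXCL12, lay the other way at 23.9 and 17.6 in CBA, against 51.0 and 37.2 in Xid and 77.3 and 62.8 in Btk KO. Its differences were 0.90 ± 0.30 and 1.51 ± 0.30, and the latter passed with the set of arrays as a block (limma adjusted p = 0.033) and not without it (0.15). It did not pass with the block once the first Btk KO array was left out (0.14). Without that array the Btk KO difference of Cd9 was -0.48 ± 0.35. Mfng, a glycosyltransferase that modifies Notch receptors, differed by 0.35 ± 0.20 and 0.16 ± 0.20.

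Of 32 genes of the Notch pathway, 18 were measured above the filter, and 0 passed with limma without the block, with 1 at an unadjusted p under 0.05 in Xid and 2 in Btk KO. The medians were 0.10 in Xid and 0.18 in Btk KO. Hes1, a transcriptional repressor and direct Notch target, measured 141.2 and 153.1 in CBA, against 222.2 and 185.5 in Xid and 312.3 and 172.8 in Btk KO, so all mutant values lay above the wild type ones while those of Dtx1 did not. Hes1 differed by 0.45 ± 0.29 and 0.64 ± 0.29 (limma adjusted p = 0.999 and 0.59), and by 0.22 ± 0.24 in Btk KO without the array of the first set. Hes1 was singled out with its values known, as a Notch target beside Dtx1. Hey1, also in this list, differed by -0.10 ± 0.44 in Btk KO without the array of the first set. Rbpj differed by 0.15 ± 0.28 and 0.25 ± 0.28. Notch1 differed by 0.25 ± 0.29 and 0.69 ± 0.29 on its brighter probe set and by -0.04 and 0.18 on its other, and Adam17, a protease that can cleave Notch, by -0.68 ± 0.45 and 0.81 ± 0.45. A probe set annotated to Notch4, of the class marked _f_at that can read several related transcripts, measured 204.5 and 356.8 in CBA, against 39.0 and 21.6 in Xid and 68.7 and 86.5 in Btk KO. Its difference in Xid was -2.97 ± 0.35, at limma adjusted p = 0.051 without the block and 0.019 with it, and in Btk KO it was -1.73 ± 0.35, at 0.15 and 0.05, so it passed in both with the block only, and in Btk KO not without the array of the first set (0.19).

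Of 11 genes for other S1P receptors, their coupled G proteins and S1P metabolism, 8 were measured and 0 passed in any comparison with limma, with or without the block. At an unadjusted p under 0.05 the count was also 0. Their medians were 0.01 in Xid and -0.02 in Btk KO. The receptor genes S1pr1, S1pr2 and S1pr4 differed from CBA in Xid by -0.03 ± 0.35, 0.00 ± 0.38 and 0.02 ± 0.29. In Btk KO they differed by 0.01 ± 0.35, -0.46 ± 0.38 and -0.44 ± 0.29. Without the first Btk KO array these Btk KO differences were -0.33 ± 0.39, 0.13 ± 0.28 and -0.06 ± 0.26. The difference between these receptors and S1pr3 was not tested. Gna13, which carries S1P signals that hold cells in place, differed by 0.15 ± 0.28 and -0.20 ± 0.28.

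Partners and ligands of CD21 gave 5 measured genes of 9, and 0 passed with limma in either fit, with 1 (Cd59a) at an unadjusted p under 0.05 in Xid and 0 in Btk KO. Fcer2a encodes CD23, which marks follicular B cells and is low on marginal zone cells. It measured 1406.8 and 2048 in CBA, against 864.2 and 1563.3 in Xid and 875.8 and 1211.6 in Btk KO, with differences of -0.54 ± 0.34 and -0.72 ± 0.34 (limma adjusted p = 0.999 and 0.62). Cd55, which lies in the list as a regulator of complement, differed by 0.34 ± 0.25 and -0.19 ± 0.25. Of 12 genes for lipid presentation by CD1d, 10 were measured and 0 passed with limma, at an adjusted or an unadjusted p. The medians were 0.04 and 0.24. Npc2, a lysosomal lipid carrier, differed by 0.27 ± 0.22 and 0.43 ± 0.22, and Psap, the precursor of the saposins that load CD1d, by 0.05 ± 0.26 and 0.37 ± 0.26 on its brightest probe set. Its other probe sets gave 0.19 and 0.26, and 0.07 and -0.89. On the last of these the Btk KO arrays measured 2.2 and 64.8, against 23.4 and 61.5 in CBA. Ap3d1, a subunit of the adaptor that sorts CD1d, differed by 0.11 ± 0.22 and 0.28 ± 0.22.

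Markers of other B cell stages are given for comparison. Of 5 measured follicular genes, 1 passed, with the block only: Cxcr5, the receptor for entry into follicles, measured 419.4 and 399.2 in CBA, against 227.2 and 285.7 in Xid and 204.8 and 228.7 in Btk KO. Its difference in Btk KO was -0.90 ± 0.20 (limma adjusted p = 0.18 without the block and 0.044 with it, or 0.14 with it and without the first Btk KO array). The medians of the follicular list were -0.13 in Xid and -0.42 in Btk KO. A further list mixes genes of transitional B cells and of earlier precursors. Its 6 measured genes (Cd93, Cd24a, Vpreb3, Rag1, Igll1 and Vpreb1) had medians of 0.24 in Xid and 0.36 in Btk KO. In that list Vpreb3 differed by 0.59 ± 0.19 and 0.39 ± 0.19 on its brighter probe set (-0.58 and 0.32 on the other). Rag1 differed by -1.38 ± 0.38 and -0.22 ± 0.38. Over all 6 arrays 0 passed with limma in either fit. At an unadjusted p under 0.05 there were 2 in Xid and 1 in Btk KO. The brighter Igll1 probe set differed by 0.95 in Btk KO, where its arrays measured 26.5 and 149.4, and its other by 0.59. Without the first Btk KO array the brighter gave 2.07 ± 0.43, or 2.28 ± 0.41 with the block.

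Some members are also expressed outside B cells, Notch2 and S1pr3 among them, and macrophage markers differed between the groups. Their 10 measured genes of 13 had medians of 1.41 in Xid and 1.95 in Btk KO, and all 10 were higher on average in both. In Btk KO 3 rose without the block (Mrc1, Spic and Vcam1, each at limma adjusted p = 0.025) and 7 with it, and in Xid 0 and 6. Their summed intensity was 1682 to 2688 on the CBA arrays, 4232 to 6594 on Xid and 6210 to 9104 on Btk KO. None was listed at 0, and Marco and Siglec1 were below the filter. Without the first Btk KO array the counts in Btk KO were again 3 and 7. Their part in the results for S1pr3, Cd1d1 and the other members was not tested. The medians of the 3 measured genes each of dendritic cells, endothelial and stromal cells and T cells were 0.77, 0.36 and 0.38 in Btk KO and 0.39, 0.66 and 0.01 in Xid. Follicular dendritic cells also express Cr2, and their 3 measured markers had medians of 0.22 in Xid and 0.09 in Btk KO. In all 4 lists 0 genes passed with limma in either fit. At an unadjusted p under 0.05 there were 1 in Xid (Col1a1) and 2 in Btk KO (Itgax and Col1a1).

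**Figure D3:**
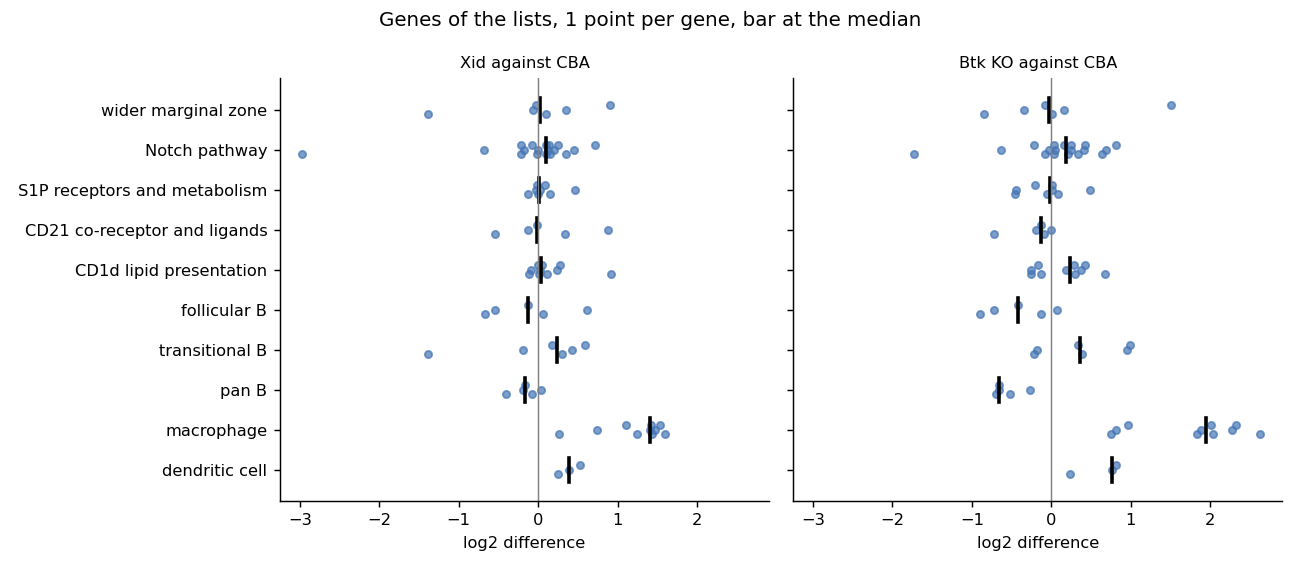
Log2 differences from CBA of the measured genes in 10 lists, 1 point per gene and a bar at each list's median, for Xid (left) and Btk KO (right). The macrophage genes lie to the right of 0 in both, with medians of 1.41 and 1.95, and the medians of the Notch pathway are 0.10 and 0.18.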

How the data were processed

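Each value in the authors' deposited table is a linear intensity, 1 per probe set and array, and arrays had been scaled to a 2% trimmed mean of 100.06. The software that summarised the probes is not given in the sources used here, and no detection calls were used. Chip lot and hybridisation day came from the scanner's header files, which are text of another kind (per the file headers).

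Of 12488 probe sets, 66 controls were left out. The annotation gives 1 symbol to 10833, several to 396 and none to 1193, and 10817 symbols matched a GRCm38.p6 gene table by gene number. Values were taken to log2 after adding 6, the 20th percentile. Probe sets under the 40th percentile of mean log2 value, about 19.8 in intensity, were left out, which kept 7453. All 3 groups entered 1 model of group means in limma 3.58.1 (R 4.3.3; lmFit, and eBayes with an intensity trend), two-sided, with Benjamini-Hochberg adjustment over the 7453 and a threshold of 0.05. This leaves 3 residual degrees of freedom. Tested on simulated data for Btk KO against CBA (7453 probe sets), the fit called 63 of 100 probe sets changed 2-fold and 99 of 100 changed 4-fold, with 13 false calls. The simulated arrays varied independently, with the same spread for every probe set and no difference between the sets of arrays. Changes were placed only in the brighter part of the probe sets. Genes of lists entered by their brightest kept probe set. Figures used matplotlib 3.10.9.

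The rule for naming genes took all member probe sets, the 3 genes most like each member's brightest probe set with 1 symbol, and up to 3 genes a list by p among those whose arrays did not overlap in some pairwise comparison, with exceptions marked. Members, the lists and the naming rule were chosen with earlier results of these data known. Other list genes given as pathway context (S1pr1, S1pr2, S1pr4, Hey1, Rbpj, Cd1d2) were picked by role, and Hes1 by role with its values known.

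The replicate numbers mark the sets of arrays, per the series' design text. Deviations from the group means correlated between groups within a set at 0.31, 0.37 and 0.44. The alternatives were the set as a block, quantile normalization, pseudocounts of 1 and 20, no filter, no trend and each array left out.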

Additional observations from a re-analysis of the deposited data

Results flagged for a closer look

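Cd1d1 was singled out because both Xid arrays lay below the CBA mean and both Btk KO arrays above it. The difference between Btk KO and Xid was 0.29 ± 0.20 on the log2 scale. Tested directly, it did not pass (limma adjusted p = 0.998; from 0.69 to 1 over the alternatives), and the difference was 0.70 relative to the pan B genes, with no test. The unscaled difference was 0.28 in the first set of arrays and 0.31 in the second.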

How the results depend on the processing

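Under all 13 tested alternatives 0 member probe sets (the dimmer Notch2 probe set was below the filter without the first CBA array) passed in any of the 4 comparisons (limma), and S1pr3 stayed below CBA, between -1.02 and -0.70 in Xid (limma adjusted p 0.081 to 1) and between -0.92 and -0.32 in Btk KO (0.14 to 0.999). The lower size in Btk KO came without its array of the first set. With the replicate block no member's call changed, and S1pr3 had limma adjusted p = 0.17 in Xid, 0.18 in Btk KO and 0.091 for their mean. The counts over all probe sets did move. In the order Xid against CBA, Btk KO against CBA, Btk KO against Xid and mean of both against CBA they were 5, 13, 3 and 11, and with the replicate block 36, 166, 14 and 144. An alternative added after the data were seen, the block fit minus the first-set Btk KO array, gave counts that were 74, 90, 8 and 161. A pseudocount of 1 gave 3 for Xid against CBA, and one of 20 gave 8 there and 5 for Btk KO against Xid. For Btk KO against CBA quantile normalization gave 8, no filter 8 and no intensity trend 0. No trend also gave 0 for the mean of both, where 545 had an unadjusted p under 0.05, as did 656 for Btk KO. Leaving out each array in turn gave 0 to 9, 0 to 141, 0 to 31 and 0 to 38. All 4 counts were 0 without either CBA array or the first Xid array, where 161 to 578 probe sets had an unadjusted p under 0.05. Those of Btk KO and of the mean were 0 without the second Xid array too (568 and 440 unadjusted). The cause was not tested.

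Set against the pan B genes of the same array, also added later, the brighter Notch2 probe set turned from -0.07 to 0.48 in Btk KO and Dtx1 from -0.46 to 0.10. Cd1d1 moved from 0.24 to 0.80 and Cr2 from 0.03 to 0.59 there, and Cd1d1 between Btk KO and Xid from 0.29 to 0.70. In Xid the signs of Cr2 (0.03), Cd1d1 (0.11), the shared probe set (0.03) and the brighter Notch2 probe set (0.14) turned. Without the first CBA array Cr2 differed by 0.69 in Xid and 0.85 in Btk KO, and without the second by -0.94 and -0.78. With 2 arrays a group, the simulated 2-fold changes were called in 63 of 100 cases. That simulation held no difference between sets and no array like the first of Btk KO. It therefore cannot tell what share of real 2-fold changes would be called here.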

Other observations

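Cd59a, a membrane inhibitor of complement, set Xid apart from both other groups. It measured 68.0 and 73.3 on the Xid arrays, 43.3 and 29.2 on CBA, and 32.6 and 38.5 on Btk KO, with no overlap. The difference was 0.88 ± 0.29 for Xid against CBA and -0.89 ± 0.29 for Btk KO against Xid, and neither passed (limma adjusted p = 0.81 and 0.998). Rag1 lay the other way, with Xid at 22.0 and 10.7, CBA at 64.4 and 38.7 and Btk KO at 45.4 and 38.9. Both Xid arrays were below the other 4, at -1.38 ± 0.38 against CBA (limma adjusted p = 0.58). This Rag1 probe set is of the class marked _r_at. Its value of 10.7 in Xid lay below 19.8, the mean intensity at the filter.

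Vpreb1, part of the surrogate light chain of B cell precursors, measured 58.8 and 57.1 on the Btk KO arrays against 25.2 to 33.4 on the other 4. It differed from CBA by 0.99 ± 0.28 (limma adjusted p = 0.31). The probe set is of the class marked _f_at, which can read several related transcripts.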
